A study of Mus musculus with 6 samples.

Results

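miR-103-3p and miR-107-3p are near-identical microRNAs (miRNAs) whose precursors lie inside the pantothenate kinase genes. They were taken as every probe that the arrays assign to either mature miRNA. This gave 2 of the 1881 mouse miRNAs on the array and 4 of its 4415 probes for mouse miRNAs. The material was RNA of exosomes, small vesicles shed by cells, from the culture supernatant of RAW 264.7, an established mouse macrophage line. The control group was exosomes of untreated cells and the LPS group was exosomes of cells given 2 µg/mL lipopolysaccharide (LPS), the bacterial cell wall component sensed by TLR4, with the supernatant taken after 72 h. Each group held 3 samples, each on its own single-colour Agilent miRNA array. The labels give the culture time for LPS only, and they do not say whether replicates were separate cultures, so every p-value refers to variation among these 6 preparations and that variation may be technical.

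The precursors of miR-103 and miR-107 sit in introns of Pank3, Pank2 and Pank1, which encode the kinases that start coenzyme A synthesis, and so these miRNAs can be made from the transcript of a metabolic gene. A miRNA binds its targets mainly through its seed, the bases just after its 5′ end. miR-103 and miR-107 share a seed, repress Dicer1 and, in liver and fat, dampen insulin signalling through caveolin-1. They belong to the wider miR-15/miR-107 group, whose members carry AGCAGC at or next to the 5′ end.

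The mature sequences, from RefSeq with build GRCm38.p6, are shown because a single base separates the pair and every measurement here rests on probes that must tell them apart. They are written 5′ to 3′ with the seed (bases 2 to 8) in capitals.
mmu-miR-103-3p: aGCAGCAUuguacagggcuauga
mmu-miR-107-3p: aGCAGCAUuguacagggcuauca
Both are 23 bases long and 22 of the 23 bases are the same. The difference is G22C, counted from 1 at the 5′ end with the base of miR-103-3p first. Among 1679 mature mouse miRNAs in the RefSeq table, the seed GCAGCAU occurred in these 2 only.

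The hairpins that release them are shown because 2 of the 3 give an identical mature product. The 3p arm, at bases 52 to 74 of each hairpin, is in capitals.
Mir103-1: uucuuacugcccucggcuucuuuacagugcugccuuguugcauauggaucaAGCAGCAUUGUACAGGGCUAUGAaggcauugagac
Mir103-2: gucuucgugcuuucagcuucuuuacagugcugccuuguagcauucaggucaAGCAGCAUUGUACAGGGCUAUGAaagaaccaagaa
Mir107: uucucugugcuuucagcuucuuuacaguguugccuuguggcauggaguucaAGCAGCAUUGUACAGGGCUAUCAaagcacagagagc
In the RefSeq gene table Mir103-1 lies within Pank3 on chromosome 11, Mir103-2 within Pank2 on chromosome 2 and Mir107 within Pank1 on chromosome 19. The scanner files place the 18-base probe of miR-103-3p at chr2:131113844-131113861 and chr11:35595954-35595971 on the plus strand, and the 20-base probe of miR-107-3p at chr19:34895232-34895250 on the minus strand (mm9). The last span is printed as the files give it and is 1 base shorter than its probe. Because the mature miR-103-3p of both its loci is the same, its signal cannot be divided between Pank2 and Pank3.

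The array probes are shown because the base that tells the miRNAs apart, in capitals, lies next to the 5′ end of each probe.
miR-103-3p, 18-base probe: tCatagccctgtacaatg
miR-103-3p, 17-base probe: tCatagccctgtacaat
miR-107-3p, 20-base probe: tGatagccctgtacaatgct
miR-107-3p, 19-base probe: tGatagccctgtacaatgc
Each probe pairs over its whole length with its own miRNA, from base 6, 7, 4 or 5 of the miRNA in the order listed, to base 23. With the other miRNA each probe mismatches at its position 2 only, which leaves 16, 15, 18 and 17 contiguous pairs in the order listed. How much of a probe's signal came from the other miRNA was not tested. Each probe was printed as 15 spots on each array.

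The LPS arrays were brighter across most miRNAs. The 75th percentile of processed signal over the 198 miRNAs detected on all 6 arrays was 431 to 510 on the control arrays and 2022 to 2343 on the LPS arrays, while the spiked-in RNAs read 2623 to 2791 and 2168 to 2483. The control arrays detected 213 to 228 miRNAs and the LPS arrays 412 to 446. The file headers also record a smaller effective feature size on the control arrays (a fraction of 0.6 on each) than on the LPS arrays (0.812 to 0.829). Whether brightness or feature size contributed to a change was not tested. Changes below are therefore given after dividing each array by that 75th percentile, and unscaled signals are given beside them. Of the marker lists, 6 of 6 myeloid miRNAs were detected in the LPS group and 5 of 6 in the controls, with a summed scaled level of 6128 to 6246 in controls and 15775 to 17635 with LPS. Most of that sum was miR-146a-5p in both groups, at a mean scaled log2 signal of 12.36 in controls and 13.70 with LPS. The sum is therefore not a level of the list as a whole. None of 4 serum and erythroid markers and none of 5 muscle and mesenchymal markers was detected on any array. Of 5 epithelial markers miR-200c-3p alone was detected, with LPS only, at a summed level of 21.2 to 23.2. Of 3 neural markers miR-128-3p alone was detected, at 90.2 to 104.7 in controls and 402 to 405 with LPS, and miR-124-3p, the defining neuronal miRNA, was detected nowhere.

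miR-107-3p was 2.49-fold higher in LPS exosomes. Its 20-base probe read 168, 208 and 205 units of processed signal on control arrays 1, 2 and 3 and 2048, 2353 and 2332 on LPS arrays 1, 2 and 3, an unscaled ratio of the group means of 11.6. After scaling, the log2 signals were 9.04, 9.11 and 9.14 in the controls and 10.42, 10.41 and 10.41 with LPS. The groups did not overlap on either scale, and after scaling the LPS arrays lay within a narrower band than the controls. The log2 change was 1.32 (SE 0.04, n = 3 and 3, 95% confidence interval 1.21 to 1.42, adjusted p = 2.07e-07 with limma and Benjamini-Hochberg adjustment over 412 tested miRNAs).

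miR-103-3p was 6.13-fold higher by the same measure, from control signals close to the array background. Its 18-base probe read 25.8, 29.6 and 27.9 units in the controls and 696, 833 and 866 with LPS, an unscaled ratio of the group means of 28.7. The scaled log2 signals were 6.34, 6.29 and 6.27 in the controls and 8.86, 8.91 and 8.98 with LPS. The groups were again apart on every array, by more than 2 log2 units after scaling. The log2 change was 2.62 (SE 0.05, n = 3 and 3, 95% confidence interval 2.50 to 2.73, adjusted p = 2.28e-08 with limma).

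The control level of miR-103-3p was measured less firmly than that of miR-107-3p. The files called miR-103-3p detected on all 6 arrays, but only 2, 4 and 0 of its 15 spots on the control arrays were flagged well above background, against all usable spots on the LPS arrays. With over 0.5 of the spots required, the probe was well above background on 0 of 3 control arrays, so its rise is also given as a bound. The LPS mean was 5.28-fold the lowest signal well above background, averaged over the control arrays. This ratio is the lower bound on the rise. The adjusted p of 2.28e-08 (limma) belongs to the measured change. Requiring every spot to be flagged lowered that bound to 4.01-fold. For miR-107-3p all usable spots were well above background on all 6 arrays, and no spot of either miRNA was saturated.

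Both members were called higher, as were 270 of the 412 tested miRNAs, a background of 65.5%, so a rise by itself did not set them apart. Another 110 of the 412, or 26.7%, were lower. Every LPS array lay above every control array for 66.3% of the 412. Among the 198 shared miRNAs 58.1% were called higher, 40.9% were higher by at least 2-fold, and 58.6% had every LPS array above every control array. The median change of the 198 was 0.77 on the log2 scale. The measured change of miR-103-3p lay 1.85 above that median, and 9 of the 198 had a larger change. At its bound of 5.28-fold it lay 1.63 above the median with 12 larger, and at the bound of 2.11-fold from its second probe 0.31 above with 75 larger, so its rank is not fixed by these arrays. miR-107-3p lay 0.55 above it, and 60 of the 198 had a larger change.

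**Figure D1:**
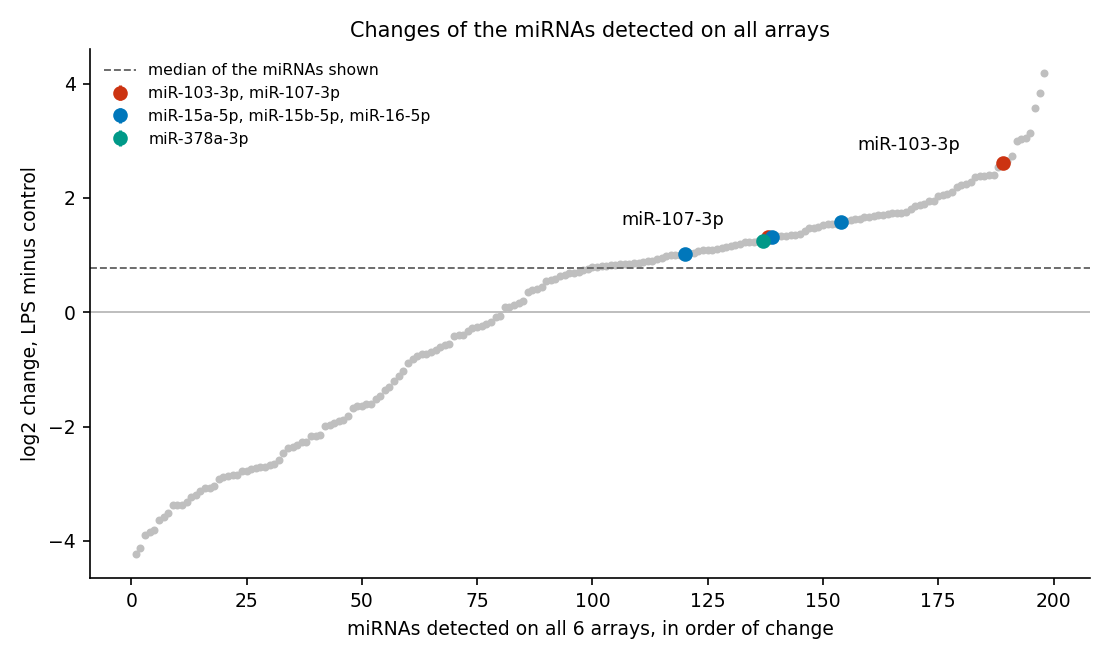
Log2 change, LPS minus control, of the 198 miRNAs detected on all 6 arrays, placed in order of change; coloured points carry their standard error, which is smaller than most points, and the dashed line is the median of 0.77. miR-103-3p, at 2.62, lies near the upper end, while miR-107-3p, at 1.32, lies among miR-16-5p and miR-378a-3p in the upper middle.

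The second probe of each miRNA gave a separate reading of the same change. The 17-base probe of miR-103-3p read 10.5, 12.1 and 12.6 in the controls and 266, 351 and 341 with LPS. Its log2 change after scaling was 2.54 (SE 0.06), and none of its control spots was well above background, which lowered the bound to 2.11-fold. The 19-base probe of miR-107-3p read 52.2, 61.5 and 61.2 in the controls and 615, 691 and 672 with LPS, a change of 1.31 (SE 0.04) after scaling. Both probes of a miRNA therefore moved the same way, with all LPS readings above all control readings. The log2 ratio of the longer to the shorter probe differed between the groups by 0.08 for miR-103-3p and by 0.04 for miR-107-3p (two-sided exact permutation p = 0.3 for each).

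**Figure D2:**
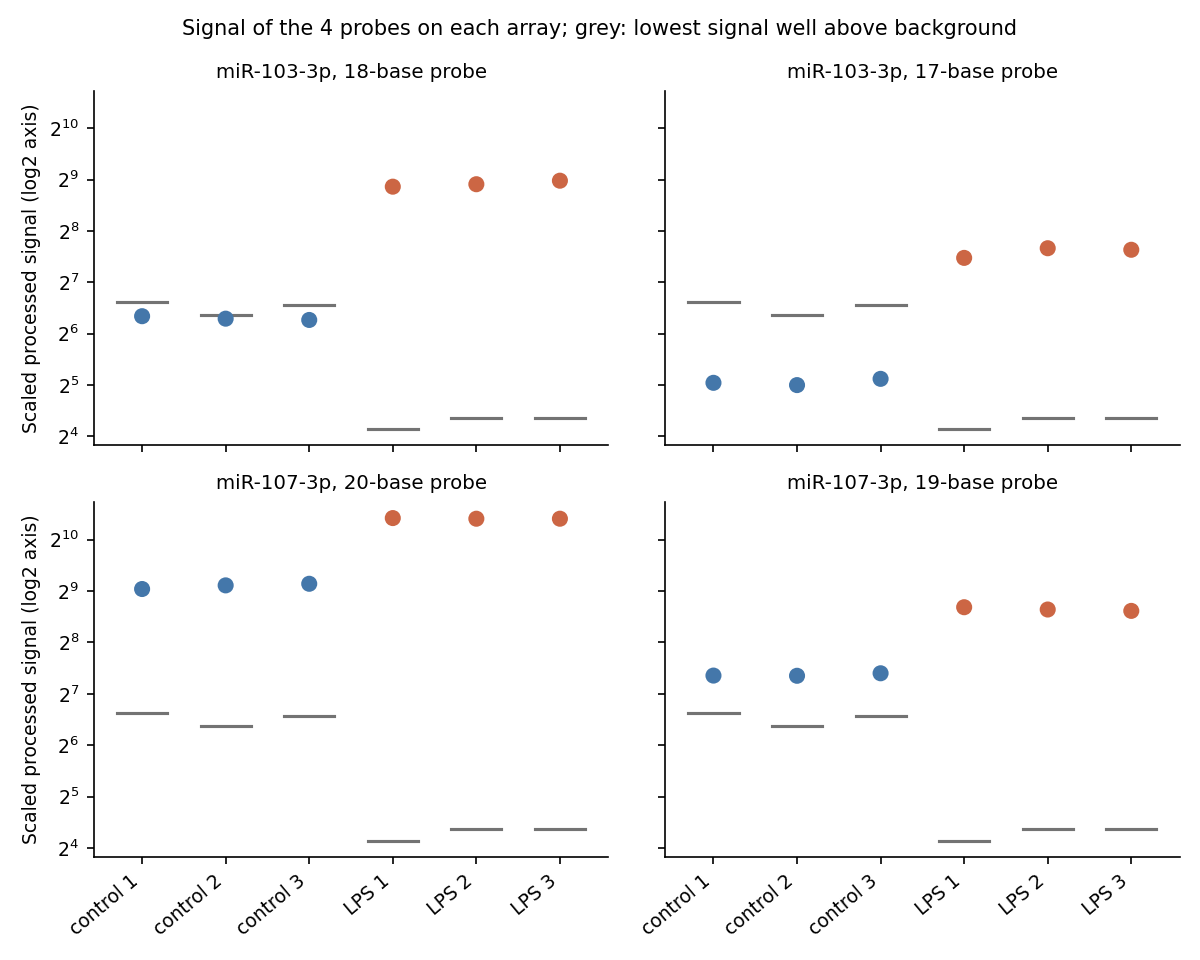
Scaled processed signal (log2 axis) of the 4 probes on the 3 control arrays (blue) and the 3 LPS arrays (orange), with a grey bar at the lowest signal well above background on each array. LPS points lie above control points for every probe, and the control points of both miR-103-3p probes lie below the grey bars.

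The change of miR-103-3p was larger than that of miR-107-3p when background-subtracted signals were used, but the size of the difference depended on how background was handled. The comparison was made within each array, where scaling cancels. A ratio of different probes does not measure which miRNA was more abundant, so only its shift between groups is read. The log2 ratio of miR-103-3p to miR-107-3p was -2.70, -2.82 and -2.87 on the control arrays and -1.56, -1.50 and -1.43 on the LPS arrays. The groups did not overlap, and the mean moved from -2.80 (SD 0.09, n = 3) to -1.50 (SD 0.06, n = 3). The shift was 1.30 on the log2 scale or 2.46-fold, with a two-sided exact permutation p = 0.1, the smallest that 3 against 3 arrays allow, so this design cannot reach 0.05.

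The other probe pairs shifted by 1.34, 1.22 and 1.26, each also with an exact permutation p = 0.1, and 0.1 after adjustment over the 4 pairs. With the control signal of miR-103-3p raised to the lowest signal well above background, the shift was 1.08. With normexp, a model-based correction of the mean signal for local background, the shift was 0.73 without an offset. Adding the usual offset of 50 units, which exceeds the control signals of miR-103-3p, left a shift of 0.04 with overlapping groups (two-sided exact permutation p = 0.6). Under that setting miR-103-3p changed by 1.11 and miR-107-3p by 1.07, against a median of 0.11 over the 198 miRNAs detected on all arrays.

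**Figure D3:**
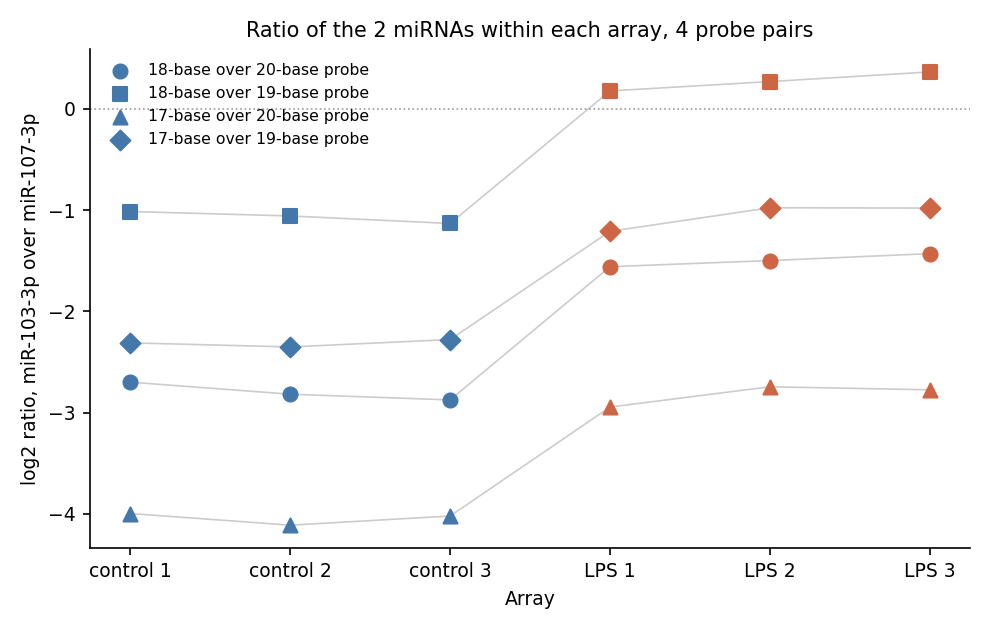
Log2 ratio of miR-103-3p to miR-107-3p within each array, from background-subtracted processed signals, for the 4 combinations of their probes (lines join the arrays of a combination; blue, control; orange, LPS). The height of a line depends on the probes, and every line is higher on the LPS arrays, by 1.22 to 1.34.

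Signals that the files or the authors had already summarised per miRNA also placed both members higher with LPS. In the authors' deposited value table, on a log2 scale with its normalization not stated, miR-103-3p stood at 4.86, 4.87 and 4.82 in controls and 8.01, 8.08 and 8.12 with LPS. miR-107-3p stood there at 8.33, 8.37 and 8.44 in controls and 9.52, 9.39 and 9.38 with LPS. These values give changes of 3.21 and 1.05, and a wider gap between the miRNAs than the single probes gave. The gene total signal of the files gave 3.42 and 1.63. For miR-103-3p that total held the 18-base probe alone on the control arrays (5.48, 6.27 and 5.92 units) and the sum of both probes on the LPS arrays (276, 347 and 348 units), so its change mixes level with the number of probes counted.

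The size of both changes moved with the scaling. Without scaling the changes were 4.84 for miR-103-3p and 3.54 for miR-107-3p, with spiked-in RNAs 5.03 and 3.73, and with median centring 2.30 and 0.998 (limma, all below the adjusted threshold of 0.05). The median of the shared miRNAs moved with them, from 0.45 with median centring to 2.99 without scaling and 3.18 with spiked-in RNAs. These scalings shift every miRNA of an array by the same amount, so the distances of 1.85 and 0.55 from that median are fixed by construction and are no test of stability. Quantile normalization, which does not, gave 1.82 for miR-103-3p and 0.75 for miR-107-3p above its own median of 0.32. How large the rise was per vesicle or per unit of RNA was not tested.

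**Figure D4:**
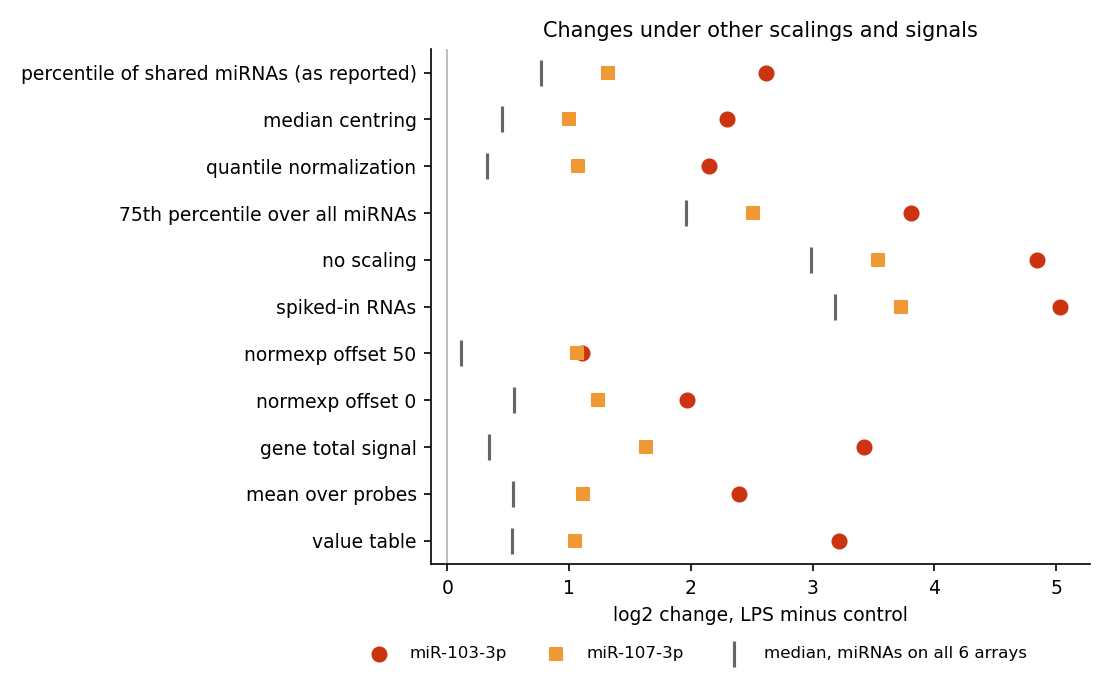
Log2 change, LPS minus control, of miR-103-3p (circles) and miR-107-3p (squares) under the reported setting and other scalings, background corrections and summaries, with the median of the miRNAs detected on all 6 arrays (grey ticks). Both stay above 0 and above the tick in every row, and they nearly coincide, at 1.11 and 1.07, with a normexp offset of 50.

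The passenger arms of the same hairpins were not detected. They are shown because a capture probe reads the arms of the miR-103 hairpins together.
mmu-miR-103-1-5p: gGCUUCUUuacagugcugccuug
mmu-miR-103-2-5p: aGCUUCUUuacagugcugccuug
mmu-miR-107-5p: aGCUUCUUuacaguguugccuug
The miR-103 arms differ by G1A, outside the bases that the 3 probes of miR-103-1-5p cover, so those probes pair equally with both, and miR-103-2-5p has no entry of its own. miR-107-5p differs from miR-103-2-5p by C16U. The brightest probe of miR-103-1-5p read -0.85, -2.20 and 0.76 units in controls and 1.86, 1.09 and -1.04 with LPS. The corresponding probe of miR-107-5p read 8.62, 4.58 and 6.49 in controls and 1.94, 3.73 and 1.29 with LPS. Both arms were called detected on 0 of 6 arrays, so no change is given for either, and a level below this detection limit is not shown to be 0.

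Of the miR-15/miR-107 group, the other members with AGCAGC were set beside them. The 3 that were detected on all arrays are shown with bases 2 to 8 in capitals, because AGCAGC starts at base 2 here and at base 1 in miR-103-3p and miR-107-3p.
mmu-miR-15a-5p: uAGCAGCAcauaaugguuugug
mmu-miR-15b-5p: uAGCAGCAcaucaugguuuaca
mmu-miR-16-5p: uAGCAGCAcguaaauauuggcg
These are miRNAs of the Mir15a/16-1 and Mir15b/16-2 clusters, known for restraining the cell cycle and Bcl2. Of 7 listed members 6 were tested, 5 were called higher and 0 lower, and the median change of the 6, which takes in 3 whose direction is not read, was 1.17 against 0.85 over all 412 tested miRNAs. This count stands beside the background of 65.5% and nothing particular to the group is read from it.

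miR-16-5p read 737, 843 and 808 units in controls and 7607, 10292 and 10282 with LPS, and its scaled log2 change was 1.33 (SE 0.07, adjusted p = 3.20e-06 with limma). miR-15b-5p read 367, 417 and 420 in controls and 5208, 5931 and 5721 with LPS, a change of 1.58 (SE 0.04, adjusted p = 9.13e-08 with limma). miR-15a-5p read 136, 158 and 158 in controls and 1302, 1489 and 1471 with LPS, a change of 1.02 (SE 0.04, adjusted p = 3.37e-07 with limma). None of the 3 overlapped between groups, which by itself sets nothing apart. Every LPS array lay above every control array for 58.6% of the 198 shared miRNAs. The changes of the 3 bracketed that of miR-107-3p while all lay below that of miR-103-3p.

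miR-195a-5p, miR-322-5p and miR-497a-5p were detected on the 3 LPS arrays and on no control array. Their LPS signals were 133 to 146, 59.8 to 69.5 and 92.4 to 106.6 units. The lowest signals well above background on the control arrays were averaged for a bound. Their scaled LPS means were 0.93, 0.43 and 0.67 times that average, so no bound on a rise exceeded 1. Their direction is therefore not read, although the fit called miR-195a-5p and miR-497a-5p higher (1.69 and 0.99) and not miR-322-5p (0.08, adjusted p = 0.484 with limma). miR-503-5p was detected nowhere. With a normexp offset of 50, 3 of the 6 were called higher and 3 lower, beside 113 higher and 284 lower of all 412 tested miRNAs under that setting. miR-15a-5p, miR-15b-5p and miR-16-5p kept their direction and call under every setting run.

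miRNAs in introns of other metabolic genes, miR-33 of Srebf2, the regulator of sterol synthesis, and miR-378a of Ppargc1b, a coactivator of mitochondrial genes, gave 1 miRNA measured in both groups. Of 4 listed, 3 were tested, 2 were called higher and 1 lower, with a median of 1.25 that includes 2 not readable in direction, beside a background of 65.5% higher and 26.7% lower and a median of 0.85 over all tested miRNAs. Nothing particular to the list is read from this. miR-378a-3p read 59.4, 61.8 and 61.9 units in controls and 566, 753 and 732 with LPS. Its scaled log2 change of 1.25 (SE 0.08, adjusted p = 5.66e-06 with limma) was close to that of miR-107-3p. miR-378a-5p and miR-33-5p were detected with LPS only, at 64.0 to 74.4 and 23.6 to 28.8 units. The bound of miR-378a-5p was 0.47-fold, which is below 1. miR-33-5p was well above background on no array and gave no bound. The calls of miR-378a-5p as higher and miR-33-5p as lower are therefore not read as directions. miR-33-3p was detected on no array.

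The miRNAs whose 6 log2 values ran closest to each member were found by the root mean square difference of centred log2 signals over the 6 arrays, among 197 other miRNAs detected on all of them. For miR-107-3p they were miR-34c-5p, of a family induced by p53 (0.04, change 1.35), miR-27a-3p, of the miR-23a cluster (0.05, change 1.34), and miR-21a-5p, an abundant miRNA in macrophages (0.05, change 1.36). For miR-103-3p they were miR-6944-5p (0.05, change 2.65), miR-7042-5p (0.05, change 2.54) and miR-222-3p, known for repressing the cell cycle inhibitor p27 (0.09, change 2.74). The members themselves were 0.65 apart by this measure, so neither was among the other's neighbours. With 3 arrays a group the measure reflects mainly the size of the change. The neighbour miR-34c-5p changed by -1.68 when the gene total signal was used and by 0.03 with a normexp offset of 50, and the other 5 stayed higher under each setting run.

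Position on the slide was checked because the control arrays and LPS array 1 shared the first row and LPS arrays 2 and 3 lay in the second. Within the first row alone, with 3 controls against 1 LPS array, the changes were 2.60 for miR-103-3p and 1.36 for miR-107-3p. With the row as a block they were 2.56 and 1.32. No control array lay in the second row, so this fit also sets LPS array 1 alone against the controls. It is no separate check, and row and treatment cannot be told apart for LPS arrays 2 and 3. The ratio of the members shifted by 1.24 within the first row (exact permutation p = 0.25, the smallest that 3 against 1 allow).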

How the data were processed

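Scanner output of 6 arrays was read. Per the file headers, the deposited intensity values came from Agilent Feature Extraction 10.7.1.1, background-subtracted, with probe positions on mm9; the submitters' processing notes name version 9.1. The authors also deposited a log2 value table (column medians 2.73 to 2.74), whose normalization and centring are not stated. It correlated with log2 processed signal across detected miRNAs at r = 0.903 to 0.972.

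Spots of a probe were averaged without control or outlier spots, and the brightest probe stood for a miRNA. Each array's signals were divided by the 75th percentile of the 198 shared miRNAs (those detected on all 6 arrays), values were floored at 13.0 (arbitrary units) and log2 was taken. A miRNA detected on all 3 arrays of a group was tested, which gave 412. The LPS effect came from limma 3.58.1 in R 4.3.3 (lmFit, eBayes; Benjamini-Hochberg threshold 0.05). Ratios within an array were compared by exact permutation. A probe was called well above background on an array when over 0.5 of its spots were flagged. A group with no such array gave a bound where the other group had any. The number of arrays limits precision.

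The named miRNAs were the members with every probe, their passenger arms, the tested members of the seed group and of the metabolic intron list, the 3 nearest patterns to each member, and markers by count; single markers and undetected list members were also named after their values were seen. The members and lists were chosen with earlier results of these data known. Alternatives covered scaling, background correction, probe summary, detection, floor, filter, variance model, blocks and left-out arrays; normexp without an offset and other spot shares for the bound were added after the data were seen. The fit was tested on simulated data. No replicate arrays held identical values. The reported fit did not pair arrays by replicate number. Deviations of same-numbered arrays from their group means correlated at -0.40, -0.22 and -0.28. With so few arrays a group, these values cannot decide whether same-numbered arrays were prepared together.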

Additional observations from a re-analysis of the deposited data

How the results depend on the processing

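Both members were called higher under all 28 alternatives, with changes of 1.11 to 5.03 for miR-103-3p and 0.998 to 3.73 for miR-107-3p (limma). Not all of these could test the size of the changes. Another filter, floor, variance trend or the replicate block could not move either estimate and bears on the p-values only. Both slide row fits set LPS array 1 alone against the controls. The largest adjusted p values, 0.000211 and 0.00144, came from the first slide row alone, where the lone LPS array is assumed to vary like the controls; over the other 27 they were 1.07e-05 and 3.23e-05. Leaving out 1 array gave 2.54 to 2.64 and 1.19 to 1.34. With the replicate number as a block the changes are 2.62 and 1.32 by construction, because each number holds an array of each group. Only the p-values could move (adjusted p = 1.06e-05 and 3.23e-05, limma). In that fit 270 were higher and 110 lower, and no call of a named result changed. Of the arrays, 0 of 6 matched their own number best. The difference between the members ran from 0.04 with a normexp offset of 50 to 2.16 in the value table, and 1.26 to 1.35 without 1 array. The bound of miR-103-3p was 28.1-fold with spiked-in RNAs, 24.7-fold unscaled, 12.1-fold with the all-miRNA percentile and 4.24-fold with median centring, and 5.01 to 5.40 without 1 array.

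Over all tested miRNAs, 110 were lower in the reported fit, 38 with spiked-in RNAs, 39 unscaled, 59 with the all-miRNA percentile, 284 with a normexp offset of 50, 182 with no offset and 269 of 1881 without a filter. The higher count of 270 became 113 with a normexp offset of 50, 115 when detection on all 6 arrays was required and 170 with detection by well above background. The share of calls that were higher was 71.1% as reported, 85.1%, 90.3% and 90.7% with the all-miRNA percentile, no scaling and spike-ins, 28.5% with a normexp offset of 50 (with no offset 182 were higher and 182 lower), 59.9% for miRNAs on all 6 arrays and 48.7% without a filter. The seed group count of 5 higher was 3 with a normexp offset of 50 and 3, all that were tested, when detection on all 6 arrays was required. miR-34c-5p reversed to -1.68 with the gene total signal; the cause was not tested. Low control signal limits miR-103-3p and scaling limits the size of both changes: the control arrays read miR-103-3p at 25.8 to 29.6 units, below the normexp offset of 50, and 6 arrays bound the precision of every value.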
